A study of Homo sapiens with 36 samples.

Results

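The comparison described here set the response of OE33 cells to acidic bile salts against that of FLO1 cells, in cells in which the DNA repair enzyme APE1 (gene APEX1) had been knocked down. OE33 and FLO1 are human cell lines from esophageal adenocarcinoma, the cancer that arises where bile and acid reflux reach the lower esophagus. In each line, cells carried 1 of 2 stably introduced shRNAs against APE1, named shAPE1#1 and shAPE1#3. Exposed cells met an acidic bile salt mixture (ABS, 200 µM at pH 4.0) for 20 min and recovered for 6 h before RNA was taken, and unexposed cells with the same shRNA were their reference. PolyA RNA was sequenced from 3 libraries per group, called independent biological replicates in the labels, which gave 8 groups and 24 of the 36 libraries of the series. The other 12 libraries came from shControl cells, which carry a non-targeting shRNA, and are used only where they are named. FLO1 grew in DMEM and OE33 in RPMI1640, so an effect of the line and an effect of its medium cannot be told apart. Each result is a contrast of 1 cell line with 1 other.

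For every gene, the mean ABS response over both shRNAs in FLO1 was subtracted from the same mean in OE33. This line difference is on the log2 scale, and a value above 0 means that ABS moved the gene further up, or less far down, in OE33. Genes were kept if they averaged at least 1 CPM (the count scaled to a library of 1 M counts) over the 12 shAPE1 libraries of each line, which 11466 of 57500 gene IDs did. The mean includes the exposed libraries, so a rise after ABS can carry a gene over the minimum. With the mean taken over unexposed libraries only, a filter chosen after seeing the data, 11378 genes remained, among them 1798 of the 1813 genes called in the line difference. Calls rest on edgeR (quasi-likelihood F test per gene), at a threshold of 0.05 after adjusting p by Benjamini-Hochberg over all 17784 genes in the fit.

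Acid and bile salts damage membranes, proteins and DNA, and cells answer through programs that are partly separate. Misfolded proteins in the cytosol free heat shock factor 1, which induces HSP70 chaperones and their partners. Misfolded proteins in the endoplasmic reticulum (ER) start the unfolded protein response, which induces ER chaperones such as BiP. Growth factor and stress kinases switch on immediate early genes, transcription factors of the FOS, EGR and NR4A families that need no new protein to be induced. APE1 cuts abasic sites during base excision repair and also keeps several transcription factors in their reduced, DNA-binding form. The series asks what APE1 does for transcriptional adaptation under simulated reflux.

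The 24 libraries held 20.7 to 40.7 M counts (24.2 to 40.7 M in FLO1, 20.7 to 38.0 M in OE33), and 3.03 to 4.07% of counts were mitochondrial. Over the 24 pairs of replicates, chi-square per degree of freedom over the kept genes was 2.67 to 34.3. No library was thus a copy of another in its own group within sampling noise. Libraries of different groups were not compared in this way. Replicate 1 of both FLO1 shAPE1 groups after ABS lay farther from the other replicates than those lay from each other, as did replicate 2 of unexposed OE33 shAPE1#1. Without the latter the line difference called 2199 genes and the OE33 response 2294. Replicate 3 of both OE33 shAPE1 groups after ABS also lay farther off, mostly from replicate 2. Its chi-square values were 14.4 and 32.2, beside 12.7 between the others, with shAPE1#1. With shAPE1#3 they were 10.3 and 25.3, beside 7.94. Without the first of these libraries the OE33 response called 1265 genes, and without the second 979. Without both FLO1 libraries the line difference called 2179 genes, 1711 of them shared with the 1813 called with all libraries. Epithelial markers summed to 29983 to 35354 CPM in OE33 and to 3068 to 5119 CPM in FLO1, while mesenchymal markers summed to 478 to 781 and to 3859 to 4243 CPM. Single genes made up most of the mesenchymal sums, and they went opposite ways. VIM averaged 3132 CPM in FLO1 and 3.95 CPM in OE33, and FN1 averaged 2.37 and 558 CPM. Of 21 mesenchymal markers 12 averaged at least 1 CPM in FLO1 and 10 in OE33. Markers of immune cells summed to at most 13.4 CPM in either line, with 3 of 14 at 0 in every library of each line. Their part in the results was not tested.

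APEX1 (ENSG00000100823, chromosome 14 from 20455191 to 20457772, plus strand, GRCh38) was low in all 24 libraries. Unexposed FLO1 cells held 25.2 ± 0.191 CPM with shAPE1#1 and 37.1 ± 1.06 CPM with shAPE1#3 (SD, n = 3), against 197 ± 1.59 CPM in shControl. Unexposed OE33 cells held 23.9 ± 1.72 and 21.8 ± 0.531 CPM, against 195 ± 3.11 CPM. ABS did not move it detectably in either line, and its line difference was 0.08 (adjusted p = 0.636, edgeR with Benjamini-Hochberg adjustment). In unexposed FLO1, APEX1 was higher with shAPE1#3 by 0.55 (log2) (adjusted p = 2.02e-05).

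Of the 11466 genes, 1813 (15.8%) responded differently in OE33 and FLO1. The difference was upward in OE33 for 915 genes (7.98%) and downward for 898 (7.83%). Large differences were few and mostly one-sided: 47 genes (0.41%) differed at least 2-fold, 10 upward and 37 downward. The 37 were led by NR4A, EGR and FOS family genes and by HSP70 genes, all of which rose in FLO1.

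Of the genes called for a response in 1 line a minority were called in the other. Over all kept genes 18.3% were called in FLO1 and 15.6% in OE33. In OE33, 1786 genes changed (15.6%), 965 up (8.42%) and 821 down (7.16%), and 2 of them changed at least 2-fold (0.0174%). In FLO1, 2104 genes changed (18.3%), 1124 up (9.8%) and 980 down (8.55%), and 38 changed at least 2-fold (0.331%), 36 of them up. Without OE33 shAPE1#3 ABS replicate 3 the OE33 response called 979 genes and the FLO1 response 2103, and without OE33 shAPE1#3 replicate 2 or OE33 shAPE1#1 replicate 3 the OE33 response called 1151 or 1175. Between the lines, 239 genes rose in both and 78 fell in both, which is 17.7% of the OE33 calls and 15.1% of the FLO1 calls. A further 150 genes changed in opposite directions, and 8043 of the 11466 kept genes were called in neither line. Of the OE33 calls 56.6% had the same sign in FLO1, beside 50% of all kept genes. Over all kept genes the responses of both lines had a Pearson correlation of 0.07, given as a description across genes, which are not independent.

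The called differences came more often from a change in FLO1 than from one in OE33. Of the 898 genes lower in OE33, 397 (44.2%) rose in FLO1 without a called change in OE33, 261 (29.1%) fell in OE33 alone and 62 (6.9%) did both. Another 39 rose in both lines, less in OE33. Of the 915 genes higher in OE33, 380 (41.5%) fell in FLO1 alone, 283 (30.9%) rose in OE33 alone and 88 (9.62%) did both. These splits use the same libraries as the difference itself and are a description of it. The response was the larger in FLO1 for 60.8% of the lower and 53.1% of the higher genes, beside 48.3% of all kept genes.

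**Figure D1:**
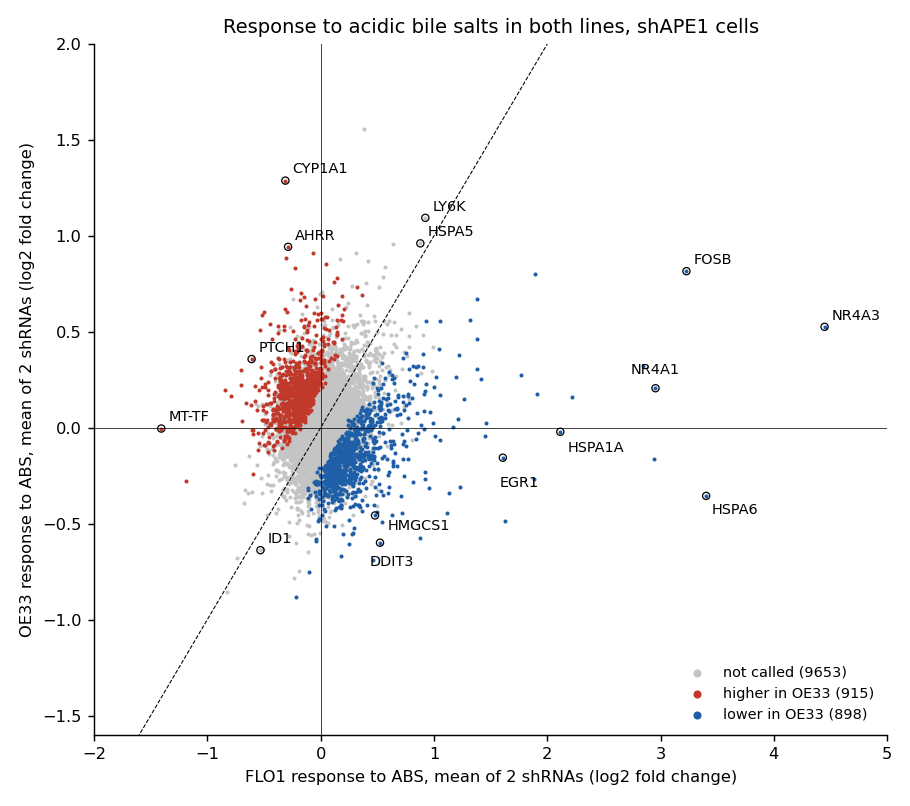
Each point is a gene, placed by its log2 response to ABS in FLO1 (horizontal axis) and in OE33 (vertical axis), each the mean of both shRNAs; the dashed line marks equal responses, and 1 gene lies outside the axes. Red and blue points are the 915 and 898 genes called higher and lower in OE33, and the longest tail runs to the right, where NR4A3, HSPA6 and NR4A1 rose in FLO1 without a called response in OE33 and FOSB rose in both lines, less in OE33.

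Many heat shock genes rose in FLO1 and few rose in OE33. Of 23 kept members 12 rose in FLO1 and 1 fell, beside 9.8 and 8.55% of all kept genes. In OE33 2 rose and 5 fell, beside 8.42 and 7.16%. HSPA1A (ENSG00000204389, chromosome 6 from 31815464 to 31817946, plus strand) encodes the stress-inducible HSP70. In FLO1 it stood at 109 to 169 CPM (median 146) in 6 unexposed libraries and at 517 to 804 CPM (median 589) in 6 libraries after ABS. In OE33 it stood at 241 to 267 CPM (median 250) and at 215 to 272 CPM (median 252). The FLO1 groups did not overlap, while the OE33 groups lay within one another. The line difference was -2.14 ± 0.10 (SE), a 4.39-fold smaller response in OE33 (adjusted p = 7.05e-17, edgeR with Benjamini-Hochberg adjustment).

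HSPA6 (ENSG00000173110, chromosome 1 from 161524540 to 161526910, plus strand), an HSP70 gene that is silent in many cells until strong stress, showed the widest gap of the family. FLO1 libraries went from 0.882 to 1.6 CPM (median 1.33) up to 4.95 to 25.3 CPM (median 15.8), and OE33 libraries from 6.77 to 7.96 CPM (median 7.29) to 4.76 to 6.98 CPM (median 5.86). Unexposed OE33 cells thus already held more HSPA6 than unexposed FLO1 cells, and no library of the unexposed groups overlapped between lines. The line difference was -3.76 ± 0.22 (13.5-fold lower, adjusted p = 1.27e-13). HSPA1A, HSPA1B and HSPA6 are close copies, and how reads that fit several of them were counted is not given in the sources used here.

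DNAJB1, the HSP40 partner of HSP70, moved in opposite directions. It rose in FLO1 from 114 to 138 CPM (median 125) to 263 to 330 CPM (median 300) and fell in OE33 from 316 to 345 CPM (median 330) to 254 to 276 CPM (median 269). Neither pair of groups overlapped, and the line difference was -1.54 ± 0.07 (adjusted p = 1.41e-16). HSPH1, an HSP110 that recharges HSP70 with nucleotide, rose in FLO1 by 0.92, and in OE33 its response did not pass (adjusted p = 1). HSPA8, the constitutive HSP70, fell in both lines, by 0.42 in OE33 and by 0.38 in FLO1, with a line difference of -0.05 (adjusted p = 0.67).

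Over the whole list of heat shock proteins and cochaperones, 23 of 25 members were kept. In the line difference 13 were lower and 0 higher in OE33, beside 7.83 and 7.98% of all kept genes. The median line difference was -0.29, beside -0.02 over all kept genes. The list's median level in unexposed cells was higher in OE33 by 0.53 on the log2 scale, beside 0.07 over all kept genes. These unexposed levels enter the response as its reference, and their part in the difference was not tested.

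Promoters of the 2 HSP70 genes are shown because both hold the inverted repeat at the core of the heat shock element, GAANNTTC, in the 250 bases before the RefSeq start (GRCh38.p14, 5′ to 3′ on the gene's strand, matches in capitals). The HSPA1A window is chr6:31815293-31815542 (plus strand), with the match beginning 106 bases before the start. The HSPA6 window is chr1:161524290-161524539 (plus strand), with matches beginning 180 and 69 bases before the start.
HSPA1A: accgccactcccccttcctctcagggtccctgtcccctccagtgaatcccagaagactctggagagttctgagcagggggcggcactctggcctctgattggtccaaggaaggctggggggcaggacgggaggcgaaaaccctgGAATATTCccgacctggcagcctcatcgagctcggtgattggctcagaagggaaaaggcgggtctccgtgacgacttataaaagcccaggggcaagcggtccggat
HSPA6: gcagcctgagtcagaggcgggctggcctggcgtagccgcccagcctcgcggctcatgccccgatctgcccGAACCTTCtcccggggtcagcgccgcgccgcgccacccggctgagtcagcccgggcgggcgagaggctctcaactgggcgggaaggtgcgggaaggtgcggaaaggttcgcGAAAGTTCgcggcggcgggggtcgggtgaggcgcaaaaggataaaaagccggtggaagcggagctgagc
Both strands were searched. This motif lay in the windows of 8 of the 13 heat shock genes that were lower in OE33 (61.5%), beside 5.78% of all 35116 windows and 5.44% of the 8729 kept genes with a window. The list was drawn up as heat shock genes, and its 10 kept members that were not called were not searched as a set. Whether the share goes with the line difference or with the list was thus not tested. Among all genes at least 2-fold lower in OE33, 26 of 37 had a window and 6 of these held the motif (23.1%), ANKRD1, AVPI1, DNAJB1, HSPA1A, HSPA1B and HSPA6. A match describes the letters in the window and not binding.

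Immediate early genes gave the largest differences. NR4A3 (ENSG00000119508, chromosome 9 from 99821855 to 99866891, plus strand) encodes an orphan nuclear receptor. In FLO1 it went from 1.52 to 1.91 CPM (median 1.64) to 24.1 to 55.6 CPM (median 36.7), with 50.1 ± 5.62 CPM after ABS for shAPE1#1 and 27.2 ± 2.72 CPM for shAPE1#3 (SD, n = 3). In OE33 it went from 0.464 to 1.29 CPM (median 0.801) to 0.615 to 2.34 CPM (median 1.08). The FLO1 groups were far apart and the OE33 groups overlapped, and the lowest OE33 library held 11 counts of the gene. The line difference was -3.92 ± 0.31, a 15.1-fold smaller response in OE33 (adjusted p = 1.28e-10, edgeR with Benjamini-Hochberg adjustment).

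The related NR4A1 and NR4A2 showed the same arrangement. NR4A1 rose in FLO1 from 3.83 to 6.72 CPM (median 4.17) to 32.9 to 42.3 CPM (median 36.1) and stayed between 5.86 and 9.64 CPM in all 12 OE33 libraries, a line difference of -2.75 ± 0.13 (adjusted p = 3.05e-16). NR4A2 differed by -2.53 ± 0.16 (adjusted p = 4.99e-13). In neither gene did the OE33 response pass the test, with 0.21 for NR4A1 (adjusted p = 0.165) and 0.32 for NR4A2 (adjusted p = 0.07).

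EGR1 (ENSG00000120738, chromosome 5 from 138465490 to 138469315, plus strand) encodes a zinc finger factor induced by serum and mitogens. It went in FLO1 from 9.53 to 12 CPM (median 10.9) to 29.5 to 38.5 CPM (median 33.4), and in OE33 from 25.5 to 28.6 CPM (median 27.3) to 21.4 to 29.5 CPM (median 23.8). The FLO1 groups did not overlap and the OE33 groups did. Every FLO1 library was below the OE33 libraries before exposure, and after it no FLO1 library was below the highest OE33 library. The line difference was -1.76 ± 0.10 (adjusted p = 1.09e-14).

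FOSB and FOS encode partners of JUN in the AP-1 dimer. FOSB rose in both lines without overlap, from a median of 1.61 to 14.9 CPM in FLO1 and from 3.56 to 6.34 CPM in OE33, and its line difference was -2.41 ± 0.21 (adjusted p = 3.74e-10). FOS rose in FLO1 from 2.02 to 4.77 CPM (median 3.4) to 13.9 to 17.4 CPM (median 15.5), and in OE33 it changed by 0.16 (adjusted p = 0.453). ARC, which is best known from neurons, differed by -1.73. EGR4 differed by -3.11, but it passed the CPM minimum in FLO1 only through the exposed libraries, with 0.248 to 0.959 CPM before ABS and 2.85 to 4.71 CPM after it. Of 26 immediate early and AP-1 genes 24 were kept, 17 were lower in OE33 and 0 higher, and the median difference was -0.57. Over all kept genes 7.83% were lower and 7.98% higher. In FLO1 21 of the 24 rose, beside 9.8% of all kept genes. In OE33 8 rose and 1 fell, beside 8.42 and 7.16%. Leaving out any 1 of the 24 libraries left 17 or 18 lower. Over the genes that reached the minimum in unexposed libraries, which EGR4 and NR4A3 did not, 15 of 22 were lower with a median of -0.54.

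The EGR1 promoter is shown because it carries CArG boxes, the sites of serum response factor through which many immediate early genes are induced. The window is chr5:138465229-138465478 (plus strand), and its 2 matches begin 105 and 83 bases before the start.
EGR1: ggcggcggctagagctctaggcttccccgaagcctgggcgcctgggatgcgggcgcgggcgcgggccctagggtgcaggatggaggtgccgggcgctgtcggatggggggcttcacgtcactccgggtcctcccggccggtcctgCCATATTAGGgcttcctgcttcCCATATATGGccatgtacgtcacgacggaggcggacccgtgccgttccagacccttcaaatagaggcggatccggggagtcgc
Of the 17 immediate early genes lower in OE33, 12 had a window, and EGR1 was the 1 with a CArG box. All windows held one in 1.16%, and the 8729 kept genes with a window in 1.43%. The lack of a match says only that these letters were not found in the 250 bases searched on both strands.

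**Figure D2:**
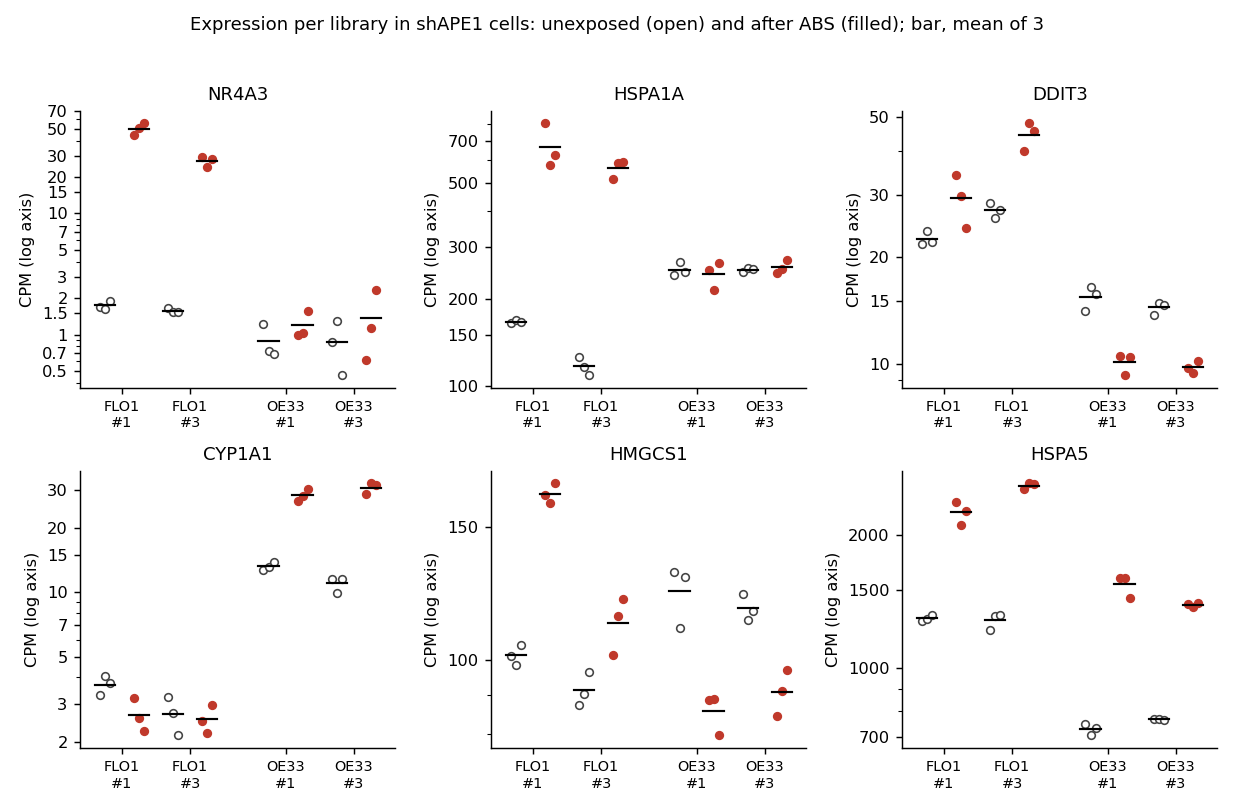
CPM of 6 genes (log axis) in each of the 24 shAPE1 libraries, by line and shRNA; open circles are unexposed, filled circles are after ABS, and bars are means of 3. NR4A3 and HSPA1A rose in FLO1 only, CYP1A1 rose in OE33 only, DDIT3 and HMGCS1 moved in opposite directions, and HSPA5 rose in every group.

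Genes that dampen MAP kinase signalling were lower in OE33 where they were called. Of 18 members 17 were kept, with a median of -0.23. In the line difference 6 were lower and 0 higher in OE33, beside 7.83 and 7.98% of all kept genes. PHLDA1, a growth-factor-induced gene, rose in FLO1 from 55.9 to 61.4 CPM (median 59) to 93.4 to 155 CPM (median 125) and in OE33 lay at 623 to 679 CPM in all 12 libraries, a line difference of -1.05 ± 0.06 (adjusted p = 1.09e-14). DUSP5 and DUSP6, phosphatases that act on ERK, differed by -0.89 and -0.84 (adjusted p = 4.62e-10 and 0.000183). DUSP6 fell in OE33 from 62.6 to 73.5 CPM (median 65) to 48.1 to 55 CPM (median 52.5) and rose in FLO1 at levels of 1.25 to 2.76 CPM.

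Of 14 EGF receptor and ligand genes only 5 were kept in both lines, 2 higher and 2 lower in OE33, beside 7.98 and 7.83% of all kept genes. ERRFI1, an inhibitor of EGF receptor kinases, rose in FLO1 from 239 to 335 CPM (median 279) to 370 to 409 CPM (median 379) and fell in OE33 from 61.8 to 76.5 CPM (median 70.4) to 45.4 to 59.7 CPM (median 53.8). Neither pair of groups overlapped, and the difference was -0.82 ± 0.07 (adjusted p = 1.41e-09). HBEGF, a ligand of the receptor, rose in both lines and less in OE33 (-0.63 ± 0.10, adjusted p = 8.31e-05). ERBB2, the receptor gene often amplified in this cancer, had a difference of 0.44 ± 0.07 (adjusted p = 9.99e-05), with a fall of 0.27 in FLO1 and a response of 0.17 in OE33 (adjusted p = 0.0258). LIF, an interleukin-6 family cytokine, rose in FLO1 from 108 to 119 CPM (median 112) to 143 to 208 CPM (median 187) and fell in OE33 from 133 to 167 CPM (median 145) to 101 to 119 CPM (median 104), a difference of -1.09 ± 0.07 (adjusted p = 2.37e-13).

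Cholesterol genes moved apart in a different way, with falls in OE33 and rises in FLO1. Of 25 genes of cholesterol synthesis and uptake 24 were kept. In the line difference 13 were lower in OE33 and 0 higher, beside 7.83 and 7.98% of all kept genes. In OE33 11 fell and 0 rose, beside 7.16 and 8.42%. In FLO1 8 rose and 0 fell, beside 9.8 and 8.55%, and the median difference was -0.35. HMGCS1 (ENSG00000112972, chromosome 5 from 43289395 to 43313512, minus strand) makes HMG-CoA for the pathway. It went in FLO1 from 87.3 to 105 CPM (median 97.5) to 102 to 171 CPM (median 141) and in OE33 from 110 to 131 CPM (median 119) to 79.6 to 97.1 CPM (median 88.8). The FLO1 groups touched at their edges and the OE33 groups did not overlap. The line difference was -0.94 ± 0.07 (adjusted p = 5.59e-11), from 0.48 ± 0.05 in FLO1 and -0.46 ± 0.05 in OE33.

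Other members of the pathway gave differences of like size. STARD4, a cytosolic sterol carrier, had the widest, -1.27 ± 0.12 (adjusted p = 1.41e-09), with medians of 13.8 and 27.2 CPM in FLO1 and of 7.27 and 6.08 CPM in OE33. IDI1, which makes the active isoprene unit, differed by -0.99 ± 0.09 (adjusted p = 1.19e-09). INSIG1, a sterol sensor that holds the SREBP factors in the ER, rose by 0.64 in FLO1 and changed by -0.07 in OE33 (adjusted p = 0.531). MSMO1, a later enzyme of the pathway, fell by 0.55 in OE33 and changed by 0.20 in FLO1 (adjusted p = 0.154). None of 15 kept genes of fatty acid synthesis was called, among them SCD at -0.22 (adjusted p = 0.0603) and FASN at 0.21 (adjusted p = 0.213).

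Of 23 kept genes of ER chaperones and the unfolded protein response, 13 rose in both lines, beside 239 of all 11466 kept genes. HSPA5 (ENSG00000044574, chromosome 9 from 125234853 to 125241330, minus strand) encodes BiP. It went from 1222 to 1319 CPM (median 1301) to 2104 to 2614 CPM (median 2457) in FLO1 and from 707 to 770 CPM (median 756) to 1374 to 1602 CPM (median 1423) in OE33. No groups overlapped in either line. The rises were 0.88 ± 0.04 in FLO1 and 0.96 ± 0.04 in OE33, and their difference was 0.08 ± 0.06 (adjusted p = 0.423, edgeR with Benjamini-Hochberg adjustment). With shAPE1#1 alone the difference passed the test at 0.28, and with shAPE1#3 it was -0.12. CRELD2, an ER stress-induced partner of protein disulfide isomerases, rose by 0.65 and 0.55 without a called difference.

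Promoters of HSPA5 and CRELD2 are shown because both hold the ER stress element that ATF6 and XBP1 use with NF-Y (matches in capitals). The HSPA5 window is chr9:125241344-125241593 (minus strand), with the match beginning 66 bases before the start. The CRELD2 window is chr22:49918384-49918633 (plus strand), with a match on the reverse strand that begins 80 bases before the start.
HSPA5: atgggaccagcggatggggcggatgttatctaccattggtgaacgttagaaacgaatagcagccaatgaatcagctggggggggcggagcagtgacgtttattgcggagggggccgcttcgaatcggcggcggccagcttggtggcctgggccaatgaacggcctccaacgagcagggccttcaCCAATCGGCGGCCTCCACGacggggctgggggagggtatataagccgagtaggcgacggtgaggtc
CRELD2: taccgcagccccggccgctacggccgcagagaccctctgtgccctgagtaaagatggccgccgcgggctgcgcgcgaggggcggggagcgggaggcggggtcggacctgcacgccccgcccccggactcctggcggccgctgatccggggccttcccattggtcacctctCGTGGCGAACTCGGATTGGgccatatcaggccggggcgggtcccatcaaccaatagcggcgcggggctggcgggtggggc
Of 13 ER list genes that rose in both lines 12 had a window, and CALR, CRELD2, HSP90B1 and HSPA5 held the element (33.3%). All windows held it in 0.074%, and the 8729 kept genes with a window in 0.172%. The list was drawn up as ER stress genes, and its other members were not searched as a set. Both strands were searched.

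Not all of the unfolded protein response was shared. Of 24 members 23 were kept, and 14 rose in OE33 and 17 in FLO1, beside 8.42 and 9.8% of all kept genes. In the line difference 7 were lower and 3 higher in OE33, beside 7.83 and 7.98%, with a median of -0.09. DNAJB9, an ER HSP40 that restrains the sensor IRE1, rose in FLO1 from 9.68 to 12.1 CPM (median 10.5) to 19 to 29.9 CPM (median 23.3). It fell in OE33, where the libraries overlapped, from 12.8 to 19.5 CPM (median 17) to 11.4 to 16.4 CPM (median 13.1), a difference of -1.47 ± 0.12 (adjusted p = 1.24e-10). HERPUD1, part of ER-associated degradation, rose by 1.06 in FLO1 and changed by 0.17 in OE33 (adjusted p = 0.0605), and XBP1 rose by 0.66 in FLO1 and changed by 0.14 in OE33. SEL1L, another part of the degradation machinery, did the reverse, with a rise of 0.57 in OE33 and a change of 0.01 in FLO1 (difference 0.55 ± 0.11, adjusted p = 0.000583).

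DDIT3 (ENSG00000175197, chromosome 12 from 57516588 to 57521737, minus strand) encodes CHOP, a pro-apoptotic factor at the end of the integrated stress response. It went in OE33 from 13.7 to 16.5 CPM (median 14.8) to 9.29 to 10.5 CPM (median 9.94) and in FLO1 from 21.8 to 28.5 CPM (median 24.7) to 24.1 to 47.9 CPM (median 37.2). The OE33 groups did not overlap and the FLO1 groups did. The difference was -1.12 ± 0.11 (adjusted p = 6.26e-09). PPP1R15A, the phosphatase subunit that reverses the integrated stress response, rose in FLO1 by 0.58 and changed in OE33 by 0.15 (adjusted p = 0.0764), while AARS, an aminoacyl-tRNA synthetase gene, rose in OE33 by 0.28 and changed in FLO1 by -0.08. Of 25 members of the list 23 were kept, and the median was 0.01. In the line difference 3 were lower and 1 higher in OE33, beside 7.83 and 7.98% of all kept genes.

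Of the called genes higher in OE33, the largest difference was that of CYP1A1, which the aryl hydrocarbon receptor induces. CYP1A1 (ENSG00000140465, chromosome 15 from 74719542 to 74725610, minus strand), a monooxygenase that oxidizes xenobiotics, rose in OE33 from 9.91 to 13.9 CPM (median 12.1) to 26.9 to 32.3 CPM (median 29.6). In FLO1 it stood at 2.15 to 4.04 CPM (median 3.26) and at 2.2 to 3.19 CPM (median 2.54), and those groups overlapped. The difference was 1.60 ± 0.14, a 3.03-fold larger response in OE33 (adjusted p = 3.74e-10). AHRR, the repressor of the receptor, rose in OE33 from 2.71 to 4.62 CPM (median 3.27) to 5.23 to 7.24 CPM (median 6.72) and fell by 0.29 in FLO1, a difference of 1.23 ± 0.12 (adjusted p = 1.42e-08). The other 6 kept targets of 11 were not called, where 15.8% of all kept genes were called, and the list's median was 0.16.

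MT-TF, the mitochondrial tRNA for phenylalanine (chromosome M from 577 to 647), fell in FLO1 from 107 to 225 CPM (median 151) to 49.1 to 70.4 CPM (median 56.9). In OE33 it lay at 36 to 43.7 CPM and at 34.1 to 45.3 CPM. The difference was 1.40 ± 0.11 (adjusted p = 1.89e-11). MT-TV, the tRNA for valine, fell by 1.19 in FLO1 and differed by 0.91 ± 0.10 (adjusted p = 2.19e-07). Selection on polyA captures such tRNAs poorly, so their counts may come from partial transcripts. Of 16 kept mitochondrially encoded genes 3 were higher and 3 lower, beside 7.98 and 7.83% of all kept genes, with a median of 0.00.

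Among the 88 genes that rose in OE33 and fell in FLO1 were PTCH1, BMF and OAS3. PTCH1, the Hedgehog receptor, went in OE33 from 3.94 to 5.33 CPM (median 4.92) to 5.37 to 6.93 CPM (median 6.15) and in FLO1 from 37.8 to 42.6 CPM (median 40.3) to 19.3 to 38.7 CPM (median 25.7), a difference of 0.97 ± 0.12 (adjusted p = 1.59e-06). BMF, a pro-apoptotic BCL2 relative, differed by 0.99 ± 0.13 (adjusted p = 5.12e-06), with a rise of 0.54 in OE33. OAS3, which makes the 2-5A messenger that activates RNase L, rose in OE33 from 67.8 to 83.9 CPM (median 80.4) to 97 to 122 CPM (median 114) and fell in FLO1 from 109 to 130 CPM (median 124) to 69.8 to 108 CPM (median 98.3). Neither pair of OAS3 groups overlapped, and the difference was 0.87 ± 0.10 (adjusted p = 2.19e-07).

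Of 30 interferon-stimulated genes 22 were kept, and 5 were higher in OE33 and 0 lower, beside 7.98 and 7.83% of all kept genes. In OE33 9 rose and in FLO1 2, beside 8.42 and 9.8%, and the median difference was 0.12. STAT2, a transcription factor of type I interferon signalling, rose in OE33 by 0.46 and changed in FLO1 by 0.06 (difference 0.40, adjusted p = 0.00989). NRF2 targets held 6 higher and 2 lower of 23 kept (median 0.13). GCLM and GCLC, both subunits of the enzyme that starts glutathione synthesis, rose in OE33 by 0.47 and 0.36 and did not pass in FLO1, with differences of 0.45 and 0.37 (adjusted p = 2.98e-05 and 0.000382). NFE2L2, which encodes NRF2 itself, fell in OE33 by 0.23 and differed by -0.37 (adjusted p = 0.0011).

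Of 26 kept p53 targets 7 were lower in OE33 and 1 higher, beside 7.83 and 7.98% of all kept genes, and 18 were not called. Their median was -0.11, beside -0.02 over all kept genes. GADD45A, a growth arrest gene, rose in FLO1 from 99.3 to 138 CPM (median 125) to 170 to 269 CPM (median 203) and lay at 39.2 to 49.8 CPM in all 12 OE33 libraries, a difference of -0.85 ± 0.09 (adjusted p = 2.46e-08). CDKN1A, the p21 inhibitor of cyclin-dependent kinases, rose by 0.73 in FLO1, and its OE33 response was 0.17 (adjusted p = 0.0233; difference -0.56 ± 0.07, adjusted p = 4.79e-07). AEN, a p53-induced nuclease, and PLK2 differed by -0.58 and -0.50.

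Of the cell cycle lists, 23 of 32 DNA replication genes and 22 of 28 mitotic genes were not called, where 15.8% of all kept genes were called. Of the DNA replication genes 8 were lower in OE33 and 1 higher, beside 7.83 and 7.98% of all kept genes, with a median of -0.14. In OE33 16 fell, beside 7.16%. In FLO1 3 rose and 7 fell, beside 9.8 and 8.55%. CDC6, which loads the replicative helicase, fell in OE33 from 169 to 189 CPM (median 173) to 145 to 158 CPM (median 153) and rose in FLO1 from 79.3 to 95.4 CPM (median 83.6) to 117 to 130 CPM (median 122). Neither pair of groups overlapped (difference -0.72 ± 0.06, adjusted p = 5.51e-10). Of the mitotic genes 5 were higher and 1 lower, with a median of 0.12. In FLO1 13 of them fell, beside 8.55% of all kept genes, and in OE33 2, beside 7.16%. PLK1 and CDC20, which drive entry into and exit from mitosis, fell in FLO1 by 0.27 and 0.28 and differed by 0.41 and 0.39 (adjusted p = 0.000106 and 0.000287). With a correction for the GC content of genes, 15 mitotic genes were higher, while the replication list held 7 lower and 0 higher. A list that includes APE1's own pathway, base excision repair, held 1 lower gene of 24, APTX (-0.23, adjusted p = 0.0461), whose call was lost in 24 of 37 alternatives.

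In each line 12 of 18 kept NF-kB genes rose, beside 8.42% of all kept genes in OE33 and 9.8% in FLO1. In the line difference 4 were higher and 3 lower, beside 7.98 and 7.83%, with a median of 0.00. NFKB2, which encodes the p100 subunit, rose by 0.60 in OE33 and by 0.78 in FLO1 without a called difference. BIRC3, an inhibitor of cell death, rose in FLO1 from 65.5 to 82.6 CPM (median 77.7) to 125 to 181 CPM (median 146) and differed by -0.70 ± 0.11 (adjusted p = 2.62e-05). TNIP1, a brake on the pathway, rose in OE33 from 200 to 221 CPM (median 210) to 293 to 339 CPM (median 313) and changed in FLO1 by 0.04 (difference 0.54 ± 0.07, adjusted p = 1.35e-06).

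Of the inhibitors of differentiation, ID1 and ID2 fell in both lines and ID3 in OE33. ID1 fell by 0.64 in OE33 and by 0.53 in FLO1, and ID2 by 0.45 and by 0.47, with differences of -0.11 (adjusted p = 0.43) and 0.02 (adjusted p = 0.965). ID3 fell in OE33 by 0.75 and changed in FLO1 by -0.11, a difference of -0.64 ± 0.11 (adjusted p = 0.000131). TGFBR3, a coreceptor for TGF-beta ligands, fell in FLO1 and differed by 0.74, and BAMBI, a decoy receptor for them, rose in OE33 and differed by 0.50. In the remaining lists, 5 of 20 YAP and TEAD targets were higher and 3 lower, and 3 of 22 hypoxia targets were higher and 5 lower. Of 25 lysosome and autophagy genes 1 (TFEB) was lower, and of 28 nuclear oxidative phosphorylation genes 5. Over all kept genes 7.98% were higher and 7.83% lower. Leaving out 1 library at a time gave 1 to 9 lower oxidative phosphorylation genes. The calls of COX5B, NDUFA4, COX6C and COX7A2 were lost in 17, 13, 9 and 8 of 37 alternatives, and that of UQCRQ in 0. None of 6 kept bile acid receptors and transporters of 22 was called, and among 12 kept genes of acid and bicarbonate transport SLC9A3, a sodium-proton exchanger, was higher (0.89, adjusted p = 0.00465).

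Of the markers that tell the lines apart, 5 of 17 kept epithelial genes were higher and 1 lower, beside 7.98 and 7.83% of all kept genes. Of 9 kept mesenchymal genes 0 were called. OCLN, a tight junction protein, rose in OE33 by 0.30 and differed by 0.44 (adjusted p = 0.000445). CLDN4, another, was lower at -0.55, from 9.09 to 33.8 CPM in FLO1 libraries and 900 CPM or more in OE33 libraries. Kept endothelial (2), immune (2) and fibroblast (1) markers were not called.

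**Figure D3:**
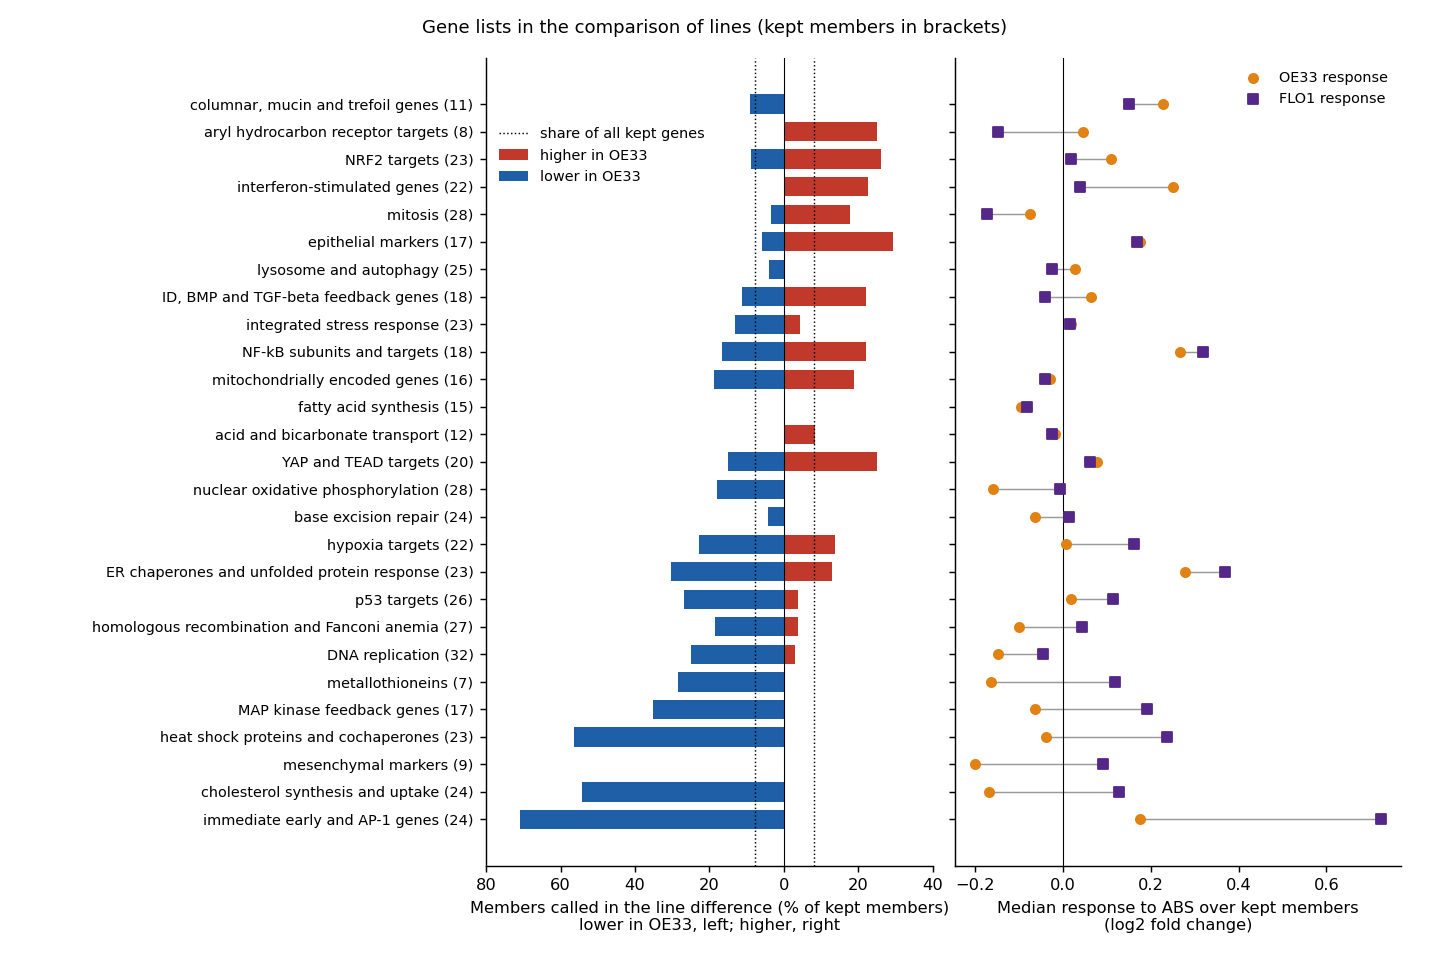
Left, the share of kept members of each gene list called lower (blue) or higher (red) in OE33, with dotted lines at the shares of all kept genes (7.83 and 7.98%); right, the median log2 response of the list in OE33 (circles) and FLO1 (squares). Lists with fewer than 7 kept members are not drawn, and immediate early, heat shock and cholesterol genes have the largest shares of lower members.

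With shAPE1#1 alone 1617 genes were called (14.1%), and with shAPE1#3 alone 150 (1.31%). The 150 were 49 higher and 101 lower, and with a correction for GC content 152 higher and 191 lower. The shRNAs share no library, but both contrasts used 1 fit with 1 spread per gene, so their calls are not independent. With both, 122 genes were called in 1 direction, 40 higher (0.349%) and 82 lower (0.715%). That is 7.54% of the calls with shAPE1#1 and 81.3% of those with shAPE1#3, and 0 genes were called in opposite directions. Of the genes named above, NR4A3 differed by -4.41 and -3.44, HSPA1A by -2.07 and -2.20, CYP1A1 by 1.57 and 1.63 and HMGCS1 by -1.24 and -0.63. Of the heat shock list 6 members were lower with both shRNAs, of the immediate early list 12 and of the cholesterol list 5. The count with shAPE1#1 was 842 without OE33 shAPE1#1 replicate 3, 1010 without OE33 shAPE1#1 ABS replicate 3, 968, 1064 and 1076 without FLO1 shAPE1#1 replicate 1, replicate 2 and ABS replicate 1, and the count with shAPE1#3 was 99 without OE33 shAPE1#3 replicate 2.

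The test of shAPE1#3 against shAPE1#1 called 5 genes (0.0436%; 878 at an unadjusted p under 0.05). CHMP1B, a subunit of the ESCRT-III membrane scission complex, rose in FLO1 from 61.7 ± 1.84 to 192 ± 10.8 CPM with shAPE1#1 and from 57.9 ± 0.41 to 101 ± 7.31 CPM with shAPE1#3 (SD, n = 3), and the line difference was -1.45 with the first and -0.41 with the second. PHLDA1 reached 154 ± 1.71 CPM with shAPE1#1 and 95 ± 2.01 CPM with shAPE1#3 in FLO1 after ABS. These 2 kept their call without any 1 library, while TUBA4A lost it without 12 of the 24 libraries, MT-TF without 13 and VIM without 1. Before exposure, 2492 genes differed between the shRNAs in FLO1 (21.7%) and 3 in OE33 (0.0262%). Whether both OE33 groups carry different hairpins cannot be told from these counts.

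The line difference was present in shControl cells too. There 279 genes were called (2.43%), 125 higher (1.09%) and 154 lower (1.34%), and 213 of them were called in the same direction in shAPE1 cells. That is 76.3% of the shControl calls and 11.7% of the shAPE1 calls. The 2 counts are not alike in libraries or fit. The shControl contrast compared 12 libraries within a fit of all 36, and the shAPE1 contrast 24 libraries in their own fit. Within the fit of all 36 the shAPE1 line difference called 1126 genes. Of all 1813 genes called in shAPE1 cells, 90% had the same sign in shControl cells, beside 66.8% of all kept genes, and 0 were called in opposite directions. FLO1 shControl ABS replicate 2 stood apart, with chi-square per degree of freedom of 101.8 and 55.3 against the other replicates of its group, beside 10.6 between those. Without that library 814 genes were called in shControl cells, 535 higher and 279 lower, and 580 were shared with shAPE1 cells. The shControl lists held 6 lower heat shock genes, 12 lower immediate early genes and 10 lower cholesterol genes, and 9, 11 and 12 without it.

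A direct test of the line difference in shAPE1 against shControl cells called 5 genes (0.0436%; 477 at an unadjusted p under 0.05), also without FLO1 shControl ABS replicate 2. HSPA1A differed between lines by -3.29 in shControl cells and by 1.15 ± 0.17 less in shAPE1 cells (adjusted p = 0.00185). In FLO1 it rose from 114 ± 5.32 to 838 ± 45.3 CPM in shControl cells, and reached 668 ± 120.1 CPM with shAPE1#1 and 565 ± 41.6 CPM with shAPE1#3 (SD, n = 3). In OE33 it fell in shControl cells, from 318 ± 2.68 to 230 ± 15.4 CPM, and stood at 252 ± 13.8 and 243 ± 25.9 CPM with shAPE1#1. HSPA1B showed the same, by 1.05 ± 0.17 (adjusted p = 0.00535), and DNAJB1 by 0.705 ± 0.132 (adjusted p = 0.0161). HSPA6, at -5.53 in shControl and -3.76 in shAPE1 cells, did not pass (adjusted p = 0.364).

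DKK1, a secreted WNT antagonist, and CD55, which protects cells from complement, moved the other way. DKK1 rose in OE33 shControl cells from 520 ± 10.3 to 683 ± 11.1 CPM, and in OE33 shAPE1#1 cells it stood at 717 ± 48.3 and 735 ± 41.4 CPM, a difference of -0.83 ± 0.15 (adjusted p = 0.015). CD55 differed by -0.73 ± 0.14 (adjusted p = 0.0152). The DKK1 call was lost without FLO1 shControl replicate 2 (adjusted p = 0.0778). The CD55 call was lost without that library and without FLO1 shControl ABS replicate 3, OE33 shControl replicate 1 or OE33 shControl ABS replicate 2. That of DNAJB1 was lost without any of 6 shControl libraries and with the replicate number as a block, and those of HSPA1A and HSPA1B in none of 46 alternatives.

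**Figure D4:**
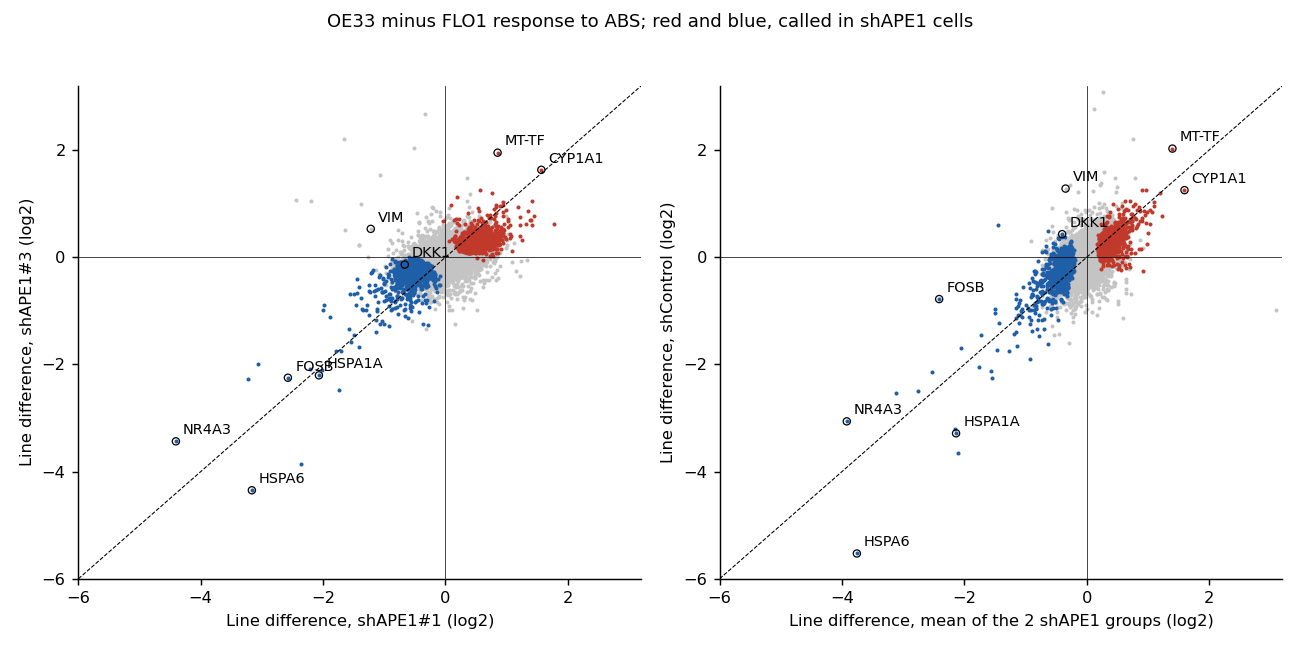
Line difference (log2, OE33 minus FLO1) per gene with shAPE1#1 against shAPE1#3 (left; 1 gene outside the axes) and as the mean of both against shControl cells (right; 3 genes outside the axes); red and blue mark genes called in shAPE1 cells and dashed lines mark equality. HSPA6 and HSPA1A lie below the line of equality at right, where the difference was larger in shControl cells, at -5.53 and -3.29.

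Genes higher and lower in OE33 also differed in sequence composition. The median GC content of the longest transcript was 53.8% for the higher genes, 43.4% for the lower and 48.8% for all kept genes, and median transcript lengths were 5164, 2975 and 3585.5 bases. With a correction for GC trends in each library the line difference called 2265 genes, 1216 higher and 1049 lower, and 1541 of the 1813 (85%) stayed called in the same direction. In unexposed cells 9903 genes (86.4%) differed between OE33 and FLO1.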

How the data were processed

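PolyA RNA-seq counts were deposited as 1 table of 57500 gene IDs by 36 libraries; the values are raw counts per gene, as whole numbers in the authors' deposited table. Per the submitters' processing notes, Trimmomatic 0.36, STAR 2.5.2b, featureCounts and Subread 1.5.2 were used with GRCh38. Which annotation was counted, whether strand was used and how multi-mapping reads were handled is not given in the sources used here. Antisense and near-identical genes may therefore share counts. The column of FLO1 shAPE1#3 ABS replicate 3 carries an extra suffix and a serial apart from the others and was used as labelled; without it the line difference called 1419 genes. Symbols and positions came from GENCODE 29 (56898 IDs matched; the rest held 0.018% of counts), and promoter windows from RefSeq (GRCh38.p14).

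Counts of the 24 shAPE1 libraries were fitted with edgeR 4.0.16 in R 4.3.3 (TMM scaling, filterByExpr plus the kept genes, 1 coefficient per group, robust quasi-likelihood test, 16 residual degrees of freedom), with Benjamini-Hochberg adjustment over 17784 genes. Contrasts with shControl came from a fit of all 36 libraries. CPM was computed on total counts. The scripts were tested on simulated data. Alternatives were RLE size factors, DESeq2 1.42.0, other filters, GC and length corrections, a replicate block and leaving out each library. Libraries held 20.7 to 40.7 M counts, and p-values measure the spread between the 3 libraries of each group, pooled over all groups of a fit.

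The comparison, its gene lists and the tests were chosen with earlier results of these data known. Genes were named by rule: APEX1; up to 15 called genes of each direction with the largest line difference and 1 sign with both shRNAs; up to 6 of each opposite pattern; up to 8 shared rises and 8 shared falls; up to 6 called genes of each direction in the shRNA and shControl comparisons; and up to 5 called members of each list, or the 2 most expressed where none was called. The text describes a part of them. EGR1, FOS and ARC are named under the first part of the rule.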

Additional observations from a re-analysis of the deposited data

Results flagged for a closer look

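The responses of OE33 and FLO1 differed in 1813 genes by a test of the difference itself, 47 of them at least 2-fold.

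The line difference with shAPE1#3 minus that with shAPE1#1 passed the test in 5 genes. On the log2 scale it was 0.771 for PHLDA1 (adjusted p = 0.0017), 0.866 for TUBA4A (adjusted p = 0.0331) and 1.042 for CHMP1B (adjusted p = 0.000372). It was 1.1 for MT-TF (adjusted p = 0.0274) and 1.752 for VIM (adjusted p = 0.0103). VIM, an intermediate filament gene, stood at 2898 to 3360 CPM in FLO1 and at 2.13 to 7.18 CPM in OE33, and its call was lost without OE33 shAPE1#1 replicate 2 (adjusted p = 0.055).

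The line difference in shAPE1 cells minus that in shControl cells also passed in 5 genes. It was -0.833 for DKK1 and -0.733 for CD55, so that these genes moved less far up in OE33 relative to FLO1 with the knockdown. It was 0.705 for DNAJB1, 1.047 for HSPA1B and 1.15 for HSPA1A, where the gap between lines was narrower with the knockdown.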

How the results depend on the processing

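No called result changed direction under any alternative run. Of 132 named genes called in the line difference, 110 kept their call in every alternative in which they were tested and 22 lost it in some; 98 genes were tested in 37 alternatives, 26 in 36 and 8 in 35, since stricter filters leave out some genes. With all 36 libraries in the fit, the line difference called 1126 genes, the OE33 response 1070, the difference with shAPE1#1 alone 811 and the shRNA difference 3. DESeq2 called 271 genes with shAPE1#3 alone, 28 in the shRNA difference and 11 in shAPE1 against shControl cells, and without a filter on low counts the last 2 counts were 17 and 17. With the GC correction shAPE1#3 alone called 343, the shRNA difference 16 and shAPE1 against shControl 9. With a correction for GC and length, chosen after seeing the data, these counts were 524, 33 and 12, and the FLO1 response called 3471. With the 1 CPM minimum set on unexposed libraries, chosen after seeing the data, no count moved by over 1.5 times. Without both FLO1 shAPE1 ABS libraries numbered 1, also chosen after seeing the data, shAPE1#3 alone called 226.

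Leaving out 1 library at a time gave 1351 to 2349 genes in the line difference, 979 to 2294 in the OE33 response, 1611 to 2341 in the FLO1 response, 842 to 2055 with shAPE1#1, 99 to 181 with shAPE1#3, 2 to 10 in the shRNA difference and 2 to 6 in shAPE1 against shControl cells. The OE33 response was 979 without OE33 shAPE1#3 ABS replicate 3, 1151 without OE33 shAPE1#3 replicate 2 and 1175 without OE33 shAPE1#1 replicate 3. The shRNA difference was 2 without OE33 shAPE1#1 replicate 2, 10 without FLO1 shAPE1#1 replicate 3, 8 without OE33 shAPE1#1 ABS replicate 3, and 3 without FLO1 shAPE1#1 replicate 2, FLO1 shAPE1#3 ABS replicate 1 or OE33 shAPE1#3 replicate 1 or 2. The count for shAPE1 against shControl was 2 without FLO1 shControl replicate 2, and 3 without FLO1 shControl ABS replicate 3 or OE33 shControl replicate 1. The shControl line difference, whose refits were chosen after seeing the data, called 182 to 814 genes. The cause of these shifts was not tested.

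Whether same-numbered libraries were handled together was not tested. Their deviations had a median correlation of 0.08 in FLO1 and 0.09 in OE33, beside -0.04 and 0.02 for pairs with different numbers. In each line 8 of 18 same-numbered pairs were over 0.1. The highest value was 0.30 in FLO1 and 0.26 in OE33 for same-numbered pairs, and 0.39 and 0.63 for the others. With a replicate block the line difference called 1725 genes, the OE33 response 1687, the FLO1 response 1994, shAPE1#1 alone 1467, shAPE1#3 alone 131, the shRNA difference 4 and shAPE1 against shControl 4. The replicate block with GC correction gave 266 with shAPE1#3 alone and 13 in the shRNA difference. Genes near the minimum of 1 CPM, such as NR4A3 in OE33, rest on few counts and are the least precise.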
